A study of Mus musculus with 2 samples.

Results

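Acetylcholine synthesis and neuronal nicotinic receptors were followed through 10 genes, which are 10 of the 32285 gene rows of the deposited count matrices and all of which were measured. They were chosen by name: Chat and Slc5a7 for acetylcholine synthesis, and Chrna3, Chrna4, Chrna5, Chrna6, Chrna7, Chrnb2, Chrnb3 and Chrnb4 for the receptor subunits. The data were single-nucleus RNA counts from the thalamus of female C57BL/6J mice, collected 21 days after a sham operation or a cortical ablation injury, which removes cortex, made at 3 months of age. Nuclei of 4 mice were pooled into 1 library per condition. Each comparison of injury with sham therefore set 1 pool against 1 pool, no test between the conditions was possible, and the effect of the operation cannot be told apart from a difference between the pools.

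Cholinergic neurons make acetylcholine with choline acetyltransferase, the product of Chat, from choline that the high-affinity transporter Slc5a7 brings back into the terminal. Nicotinic receptors are cation channels of subunits around a central pore, and the combination of alpha and beta subunits sets where a channel is used and how it responds: alpha4 with beta2 is the common pair in the forebrain, alpha3 with beta4 is typical of the medial habenula and of autonomic ganglia, and alpha7 forms channels of its own. The medial habenula is a small epithalamic nucleus beside the third ventricle that is known for cholinergic neurons in its ventral part, peptidergic neurons in its dorsal part and an axon tract to the interpeduncular nucleus.

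UMIs (unique molecular identifiers, 1 per captured transcript) numbered 137850696 over 16390 barcodes in sham and 180106314 over 21828 barcodes in injury. After filtering, 16373 and 21777 nuclei were kept, with medians of 7190 and 6810 UMIs. The same barcode sequence occurred in both libraries 101 times, in 10 sham and 5 injury nuclei of the habenula-like neurons and in 38 and 24 of the thalamic relay-like neurons. Levels below are in CPM, the UMIs of a gene per 1000000 UMIs of a cell class, in sham and then in injury, with 95% exact Poisson intervals, and shares are percentages of nuclei with at least 1 UMI, with 95% Clopper-Pearson intervals. These intervals cover counting error only.

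Habenula-like neurons comprised 1844 sham and 2100 injury nuclei in 3 clusters, called here by their leading genes. The 5 medial habenula markers summed to 8729 and 9369 CPM in the Lamc3 cluster, 5617 and 5623 in the Pde11a cluster, 1898 and 2059 in the Ptprq cluster and 96.4 and 107 in the thalamic neurons. They were thus highest in the first 2 clusters but not confined to them. Their mean on the log2 scale, which was used for naming, put the first 2 in the other order. It was 6.68 in the Lamc3, 7.28 in the Pde11a and 4.5 in the Ptprq cluster. Tac2, the neurokinin B precursor, measured 53.9 and 56.3 CPM in the Lamc3 cluster and 114 and 115 in the Pde11a cluster, and Pou4f1, a transcription factor of habenular neurons, 66.7 and 57.9, and 122 and 98.2, against 0.5 and 0.7 in the thalamic relay-like neurons. The Ptprq cluster held Pou4f1 at 46.9 and 42.8 CPM. Its mean log2 level over the habenula markers was 4.18, beside 4.87 in the Lamc3 cluster and 4.68 in the Pde11a cluster. Of 5 lateral habenula markers, Htr2c (1870 and 1776 CPM, against 226 and 210), Parm1 and Pcdh10 were higher there than in the thalamic neurons. Gap43 and Vgf were not, so it is called the Ptprq cluster without a side. The 10 leading genes of each of the 3 clusters held no habenula marker. The comparison class was 6448 sham and 6458 injury thalamic relay-like neurons in 9 clusters.

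The habenula-like nuclei were not mixed alike in the libraries. The Lamc3 cluster had 584 sham and 935 injury nuclei, or 31.7% (29.6 to 33.8) and 44.5% (42.4 to 46.7) of the habenula-like nuclei. The Pde11a cluster had 494 and 468 nuclei (26.8% and 22.3%) and the Ptprq cluster 766 and 697 (41.5% and 33.2%). Because the members differ between these clusters, injury and sham were compared within each cluster. The median number of UMIs per nucleus was 4914 and 5090 in the Lamc3 cluster, 4587 and 5162 in the Pde11a cluster, 6363 and 6425 in the Ptprq cluster, and 9520.5 and 9767 in the thalamic neurons, so shares of nuclei with a UMI are also given after every nucleus was thinned to 3000 UMIs.

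Free RNA in a droplet can put a UMI into a nucleus that does not express the gene, and mature oligodendrocytes were used to gauge it. Among 990 sham and 2304 injury oligodendrocytes, with medians of 1538.5 and 1651.5 UMIs, Chat was seen in none and in 0.130%, Slc5a7 in none and in 0.174%, Chrna3 in 0.101% and 0.087%, and Chrnb4 in none and in 0.087%. A floor of 3 nuclei stands at 0.303% of the 990, which is a convention and not the upper bound of the exact interval. Chrna4, Chrna7 and Chrnb2 were seen in 0.347% to 0.738% of the oligodendrocytes of a library. These are the shares against which those in neurons should be read.

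Both genes of acetylcholine synthesis were concentrated in 1 of the 3 habenula-like clusters, the Lamc3 cluster. Chat measured 214 CPM (198 to 232; 640 UMIs) in sham and 233 (220 to 247; 1172 UMIs) in injury, in 53.3% and 54.0% of the nuclei. In the Pde11a cluster, the other cluster in which the medial habenula markers were highest, not a single Chat UMI was found in either library: 0 of 494 and 0 of 468 nuclei. The same floor stood at 0.607% and 0.641%, and the Clopper-Pearson upper bounds at 0.744% and 0.785%. The exact interval of the log2 ratio of the Lamc3 to the Pde11a cluster began at 7.14 in sham and 7.33 in injury. The Ptprq cluster held 2 and 3 Chat UMIs. In the thalamic neurons Chat measured 0.117 (8 UMIs) and 0.292 CPM (21 UMIs), and the log2 ratio of the Lamc3 cluster to them was 10.84 in sham and 9.64 in injury. The thalamic shares were 0.109% and 0.279% of nuclei, beside none and 0.130% of the oligodendrocytes at a far lower depth.

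The choline transporter Slc5a7 followed Chat but reached further. It measured 189 CPM (173 to 205; 563 UMIs) and 159 (148 to 171; 799 UMIs) in the Lamc3 cluster, in 50.2% and 45.6% of nuclei. In the Pde11a cluster, which had no Chat, it was still 12.3 and 12.2 CPM, from 30 and 31 UMIs in 4.86% and 5.34% of nuclei, above every oligodendrocyte value. The log2 ratio to the thalamic neurons was 9.13 and 8.44 in the Lamc3 cluster and 5.19 and 4.73 in the Pde11a cluster. The thalamic neurons, which all these ratios share as denominator, held 23 and 33 Slc5a7 UMIs (0.336 and 0.459 CPM), and the Ptprq cluster 1.34 and 2.19 CPM. Oligodendrocyte precursors also held the gene, at 16.9 and 18.0 CPM from 9 and 16 UMIs in 5.56% and 5.91% of 144 and 220 nuclei.

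**Figure D1:**
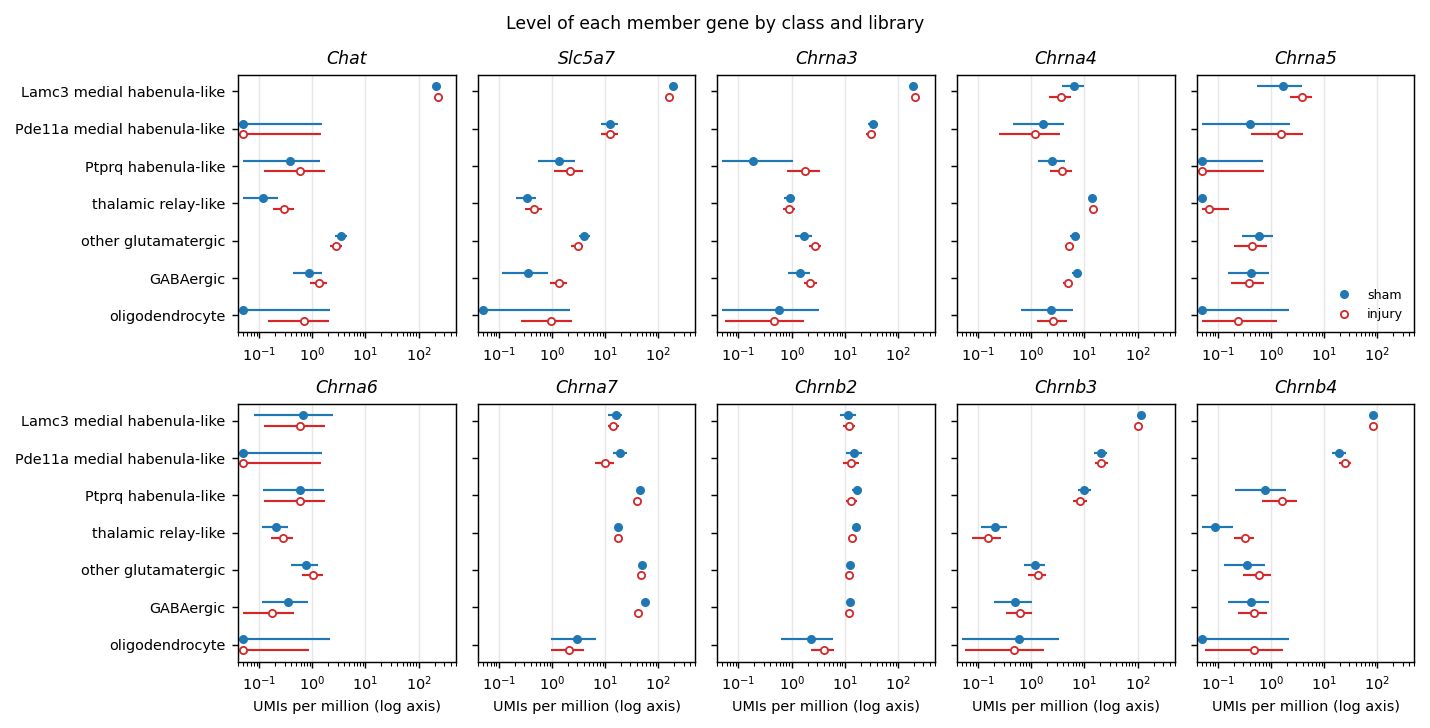
Level of each member gene (CPM of the class, log axis) in the Lamc3, Pde11a and Ptprq clusters, the thalamic relay-like, other glutamatergic and GABAergic neurons and the oligodendrocytes. Each library has 1 point with its 95% exact Poisson interval, and levels of 0 are drawn at the left edge. Chat stands at 214 and 233 in the Lamc3 cluster and at 0 in both libraries of the Pde11a cluster, whereas Chrna4 is highest in the thalamic neurons at 14.2 and 14.6.

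Outside the habenula, a small share of other glutamatergic neurons showed a UMI of a synthesis gene. The class of other glutamatergic neurons, whose largest cluster was led by Lmx1a, held Chat at 3.50 and 2.83 CPM and Slc5a7 at 4.09 and 3.03. Chat was found in 48 and 53 of its 2371 and 2756 nuclei and Slc5a7 in 51 and 46, and both genes together in 0 sham nuclei and 1 injury nucleus. The products of these shares, 0.0435% and 0.0321%, are so small that these counts do not show whether the same neurons carried both. In the Lamc3 cluster both were found in 185 sham and 283 injury nuclei.

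The Lamc3 cluster was the highest cluster of Chat, Slc5a7 and Chrna3, and also of Chrnb3 and Chrnb4, whose sequences are not shown. Chrna4 was picked along with Chat, Slc5a7 and Chrna3 but had too few upstream bases without an annotated exon of its own. The bases just upstream of the start of Chat, Slc5a7 and Chrna3 are shown. They come from RefSeq promoters of GRCm38.p6, in which 8 of the 10 members had an entry, and are written 5′ to 3′ on the minus strand, on which all 3 genes lie. Capitals mark the E-box core CANNTG, which basic helix-loop-helix factors bind, and the GC-box GGGCGG, found on either strand. The Chat stretch is chr14:32465990-32466159, kept to the 170 bases without an annotated exon of Chat itself. That of Slc5a7 is chr17:54299035-54299284 and that of Chrna3 chr9:55026563-55026812. Exons of other genes were not checked. An antisense gene, Gm2990 (chr14:32465042-32483548), overlaps Chat and spans the Chat stretch.
Chat: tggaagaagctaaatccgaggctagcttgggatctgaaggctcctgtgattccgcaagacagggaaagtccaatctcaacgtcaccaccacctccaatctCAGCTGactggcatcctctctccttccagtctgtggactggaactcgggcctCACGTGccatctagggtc
Slc5a7: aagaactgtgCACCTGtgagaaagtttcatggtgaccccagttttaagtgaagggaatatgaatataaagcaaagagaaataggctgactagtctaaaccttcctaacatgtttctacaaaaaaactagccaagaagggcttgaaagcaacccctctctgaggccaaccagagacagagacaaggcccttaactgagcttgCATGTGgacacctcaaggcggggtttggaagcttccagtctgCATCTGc
Chrna3: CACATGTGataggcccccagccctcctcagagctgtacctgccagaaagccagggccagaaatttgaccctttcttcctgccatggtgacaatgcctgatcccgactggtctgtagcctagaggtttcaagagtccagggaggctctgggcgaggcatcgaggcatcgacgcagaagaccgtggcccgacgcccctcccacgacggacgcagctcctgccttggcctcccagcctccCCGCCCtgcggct

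CANNTG matched 2 times in the Chat stretch, 3 times in that of Slc5a7 and 2 times, overlapping, in that of Chrna3. GGGCGG matched once, on the reverse strand, in that of Chrna3, and TAATTA, the core of many homeodomain sites, matched in none. Among 32851 promoters the 250 bases held CANNTG in 66.2%, GGGCGG in 32.7% and TAATTA in 4.84%, and the 170 bases held them in 53.5%, 19.5% and 3.66%. CANNTG is thus a common match, and the letters describe these windows only.

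The subunits alpha3 and beta4, which assemble with each other, were high in the same clusters and in the same order. Chrna3 measured 190 CPM (567 UMIs) and 213 (1068 UMIs) in the Lamc3 cluster, in 54.5% and 60.4% of nuclei, and 34.4 (84 UMIs) and 31.4 (80 UMIs) in the Pde11a cluster, in 14.6% and 14.7%. In the thalamic neurons it measured 0.921 and 0.890, which gives log2 ratios of 7.69 and 7.90 for the Lamc3 cluster and 5.22 and 5.14 for the Pde11a cluster. Chrnb4 measured 81.4 (243 UMIs) and 83.8 (421 UMIs) in the Lamc3 cluster and 19.3 (47 UMIs) and 25.1 (64 UMIs) in the Pde11a cluster. It was close to absent from the thalamic neurons, with 6 sham and 23 injury UMIs, and its log2 ratios to them were 9.86 and 8.03 in the Lamc3 cluster and 7.78 and 6.30 in the Pde11a cluster. The Ptprq cluster held little of either, with 1 and 9 Chrna3 UMIs, 6 of the 9 in 1 nucleus, and 4 and 8 Chrnb4 UMIs (0.765 and 1.59 CPM). Its Chrnb4 was still above the thalamic level, at log2 ratios of 3.12 (0.86 to 5.20) and 2.31 (0.94 to 3.53). For both genes the next cluster in order after the Pde11a cluster had at most 3.52 CPM, so that by value the Lamc3 and then the Pde11a cluster stood above the other neuron clusters compared. The 1 UMI behind 3.52 gives an interval of 0.0892 to 19.6, which overlapped that of Chrnb4 in the Pde11a cluster in sham.

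Both genes lie side by side on chromosome 9 with Chrna5. In GRCm38, Chrna5 spans chr9:54980880-55007779 on the plus strand, and Chrna3, chr9:55010111-55026562, and Chrnb4, chr9:55028154-55048779, lie on the minus strand, with 2331 bases between the first pair and 1591 between the second. Chrna5 encodes an accessory subunit that joins channels made by the others. It was sparse in spite of its position: 1.68 CPM (5 UMIs) and 3.78 (19 UMIs) in the Lamc3 cluster, with 1 UMI in any nucleus that had it. The thalamic neurons held 0 sham and 5 injury UMIs, and the exact interval of the log2 ratio of the Lamc3 cluster to them began at 4.39 in sham and 4.30 in injury. An antisense gene, Gm47877, overlaps Chrnb4. Whether the counting used strand is not given in the sources used here, and whether Gm47877 reads entered the Chrnb4 count was not tested.

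Beta3, an accessory subunit of receptors with alpha6, was present in all 3 habenula-like clusters and nearly missing from the thalamus. Chrnb3 measured 114 CPM (339 UMIs) and 100.3 (504 UMIs) in the Lamc3 cluster, 20.1 (49 UMIs) and 20.8 (53 UMIs) in the Pde11a cluster, and 9.95 (52 UMIs) and 8.35 (42 UMIs) in the Ptprq cluster, against 0.205 and 0.153 in the thalamic neurons. The log2 ratios to the thalamic neurons were 9.12 and 9.36, 6.62 and 7.09, and 5.6 and 5.77. In this order of clusters the Poisson intervals did not overlap between neighbours in either library. Its usual partner was sparse: Chrna6, the next gene on chromosome 8, 3481 bases away, had at most 3 UMIs in any habenula-like cluster and library, and 5 and 6 UMIs (0.469 and 0.476 CPM) over all 3, against 0.205 and 0.278 CPM in the thalamic neurons. The intervals of the log2 ratio, 1.2 (-0.63 to 2.75) and 0.78 (-0.83 to 2.14), included 0, so no difference was detectable at this depth. Of the 14 sham and 20 injury thalamic UMIs, 11 and 18 (1.33 and 1.74 CPM) came from 1 of the 9 thalamic clusters, that led by Sycp2l, so the thalamic level rested almost wholly on it. The other glutamatergic cluster led by Lmx1a had 13 (0.930 CPM) and 21 (1.34).

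**Figure D2:**
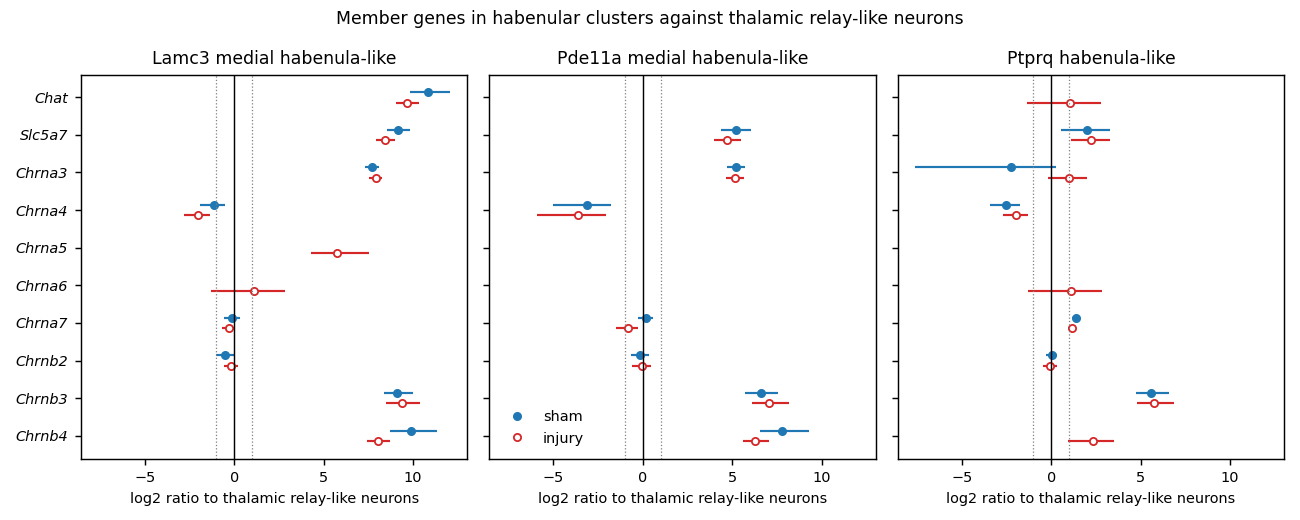
Log2 ratio of the level in each habenula-like cluster to that in the thalamic relay-like neurons, 1 panel per cluster, with 1 point per library and its 95% exact interval for the members with at least 20 UMIs over both classes and UMIs on both sides. In the Lamc3 panel Chat, Slc5a7, Chrna3, Chrnb3 and Chrnb4 lie at 7.69 or above and Chrna4 at -1.15 and -2.03.

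The alpha4 subunit ran the opposite way. Chrna4 measured 14.2 CPM (969 UMIs) and 14.6 (1049 UMIs) in the thalamic neurons, in 13% and 14.2% of nuclei, and 6.37 (19 UMIs) and 3.58 (18 UMIs) in the Lamc3 cluster, 1.64 (4 UMIs) and 1.18 (3 UMIs) in the Pde11a cluster and 2.49 (13 UMIs) and 3.78 (19 UMIs) in the Ptprq cluster. The log2 ratios to the thalamus were -1.15 and -2.03 in the Lamc3 cluster, -3.11 and -3.63 in the Pde11a cluster and -2.51 and -1.95 in the Ptprq cluster. The level in oligodendrocytes was 2.35 and 2.58 CPM, above that of the Pde11a cluster, while by share of nuclei the Pde11a cluster had 0.810% and 0.641% and the shallower oligodendrocytes 0.404% and 0.477%. Its partner beta2 did not follow: Chrnb2 measured 16.6 and 13.9 in the thalamic neurons, 11.7 and 12.1 in the Lamc3 cluster, 15.2 and 13.4 in the Pde11a cluster and 17.0 and 13.3 in the Ptprq cluster. Of its 6 log2 ratios to the thalamic neurons, 1 had an interval without 0, that of the Lamc3 cluster in sham at -0.50 (-1.03 to -0.01). Adar, on the opposite strand, overlaps Chrnb2.

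Within the class of thalamic neurons these genes were not evenly spread. Chrna4 ranged from 4.72 to 25.3 CPM over the 9 thalamic clusters in sham and from 5.02 to 27.3 in injury. The cluster led by Fgf10, at 25.3 (19.0 to 32.9) and 26 (20.6 to 32.2), and the cluster led by Npsr1, at 19.1 (15.1 to 23.8) and 27.3 (20.9 to 35.2), were its highest pair in both libraries. Their intervals overlapped, and in sham so did those of the cluster led by Ppp1r3a, at 19.0 (15.9 to 22.5). The cluster led by Sycp2l had 4.72 (3.36 to 6.46) and 5.51 (4.17 to 7.13). The same cluster had the highest Chrnb2 of all 20 neuron clusters compared, 25.4 (22.1 to 29.1) and 19.2 (16.6 to 22.1). The Chrnb2 intervals of the next clusters in order overlapped with it. At the finer resolution this cluster split into 2, neither of which was then in the thalamic class: the part led by Gli3 had a mean of 5.62 over the relay markers, where 6 was needed, and the part led by Sycp2l had a marker of another cell type, Pdgfrb, among its leading genes.

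Alpha7, which can form channels without a beta subunit, was higher in the Ptprq cluster than in either medial cluster. Chrna7 measured 44.8 CPM (234 UMIs) and 39.8 (200 UMIs) in the Ptprq cluster, in 20.2% and 19.4% of nuclei, against 17.1 (1171 UMIs) and 17.7 (1269 UMIs) in the thalamic neurons. The log2 ratio was 1.39 (1.18 to 1.59) and 1.17 (0.95 to 1.39), and with TMM factors, which scale the classes to the bulk of their genes, it was 1.07 and 0.80. The Lamc3 cluster, at 15.7 and 14.3, had intervals of the ratio to the thalamus that included 0 in both libraries. The Pde11a cluster, at 19.3 and 9.82, had one that included 0 in sham, while in injury the log2 ratio was -0.85 (-1.48 to -0.28). Other glutamatergic neurons, at 49.6 and 46.5, and GABAergic neurons, at 55.9 and 42.3, were by value as high as the Ptprq cluster. Over the 9 thalamic clusters Chrna7 ranged from 11.9 to 36.7 CPM in sham and from 11.1 to 29.6 in injury. The highest of them was thus below the Ptprq cluster by value but well above the thalamic class level. Gm44741 overlaps Chrna7 on the same strand.

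The Ptprq cluster was itself uneven. At the finer resolution it split into 455 sham and 381 injury nuclei with Chrnb3 at 3.10 and 2.92 CPM and Chrna7 at 37.8 and 29.9, and into 311 and 316 nuclei with Chrnb3 at 21.0 (15.2 to 28.4) and 16.9 (11.7 to 23.8) and Chrna7 at 56.0 and 55.4. The 2 parts had Chrnb3 intervals that did not overlap. The larger part only just met the habenula rule, with a mean of 2.59 on the log2 scale where 2.5 was needed, while the smaller part had 5.15, with Pou4f1 and Gpr151 among its leading genes, so the habenula-like name and the Chrnb3 of the Ptprq cluster rested mainly on the smaller part. Clustering without integration set apart a small cluster of 95 sham and 92 injury nuclei, of which 94 and 92 came from the Ptprq cluster, led by Sema3d, Col5a3 and Lpar1, which the naming rule put in the Pde11a class of that alternative. In it Chrna7 reached 120 and 104 CPM and Chrnb3 60.9 and 45.1, with no Chat UMI. Chrna7 and Chrnb3 were found together in 11 of the 95 nuclei and in 6 of the 92, where the product of the single shares gives 9.04% and 7.44% against 11.6% and 6.52% seen.

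Counted together, 5 of the 8 members with at least 20 UMIs were at least 2-fold higher in habenula-like than in thalamic neurons in both libraries (Chat, Slc5a7, Chrna3, Chrnb3 and Chrnb4), beside 10.7% of 18367 genes, and 1 was at least 2-fold lower (Chrna4), beside 9.18%. For the Lamc3 cluster the counts were the same 5 and 1 of 8, beside 10.2% of genes higher and 12% lower. For the Pde11a cluster 4 of 7 were higher (Slc5a7, Chrna3, Chrnb3 and Chrnb4) and 1 lower, beside 10.3% each way. For the Ptprq cluster 3 of 6 were higher (Slc5a7, Chrna7 and Chrnb3) and 1 lower, beside 9.54% and 6.57%. Slc5a7 rested there on 7 and 11 UMIs and met the minimum only together with the thalamic UMIs. Its 1.34 and 2.19 CPM were below the 4.09 and 3.03 of other glutamatergic neurons. TMM factors lowered the log2 ratios of the 3 clusters to the thalamus by 0.21 to 0.38, and with them 2 members were higher in the Ptprq cluster, since Chrna7 fell below 2-fold in injury. Chrna5 and Chrna6 had too few UMIs for these counts. Members and the other cholinergic genes were kept out of the features used for clustering, but they vary with genes that were used, so the counts describe the clusters and are no test of them.

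Between the 2 medial clusters the members differed in level more than in identity, apart from Chat. Of 8 members with at least 20 UMIs, 6 were at least 2-fold higher in the Lamc3 than in the Pde11a cluster in both libraries, beside 4.2% of 12083 genes. The log2 ratios were 3.94 and 3.71 for Slc5a7, 2.46 and 2.76 for Chrna3, 2.5 and 2.27 for Chrnb3, and 2.08 and 1.74 for Chrnb4. Chrna4 was also counted, at 1.96 and 1.6, from 4 and 3 UMIs in the Pde11a cluster. The members without such a difference were Chrnb2, at -0.37 and -0.14, and Chrna7, at -0.29 and 0.55.

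Co-detection asks whether the same nuclei carry 2 of the genes. At full depth Chat and Slc5a7 were both found in 31.7% (27.9 to 35.6) of the sham and 30.3% (27.3 to 33.3) of the injury nuclei of the Lamc3 cluster, where the product of the single shares was 26.7% and 24.6%. A nucleus with more UMIs is more likely to show any gene, however, and of 21 pairs with each gene in at least 20 nuclei none had an interval below the product in both libraries and 5 had one above it (Chrnb3 with each of Chat, Slc5a7, Chrna3 and Chrna7, and Chat with Slc5a7). Thinned to 3000 UMIs, which left 468 sham and 747 injury nuclei and dropped 116 and 188 shallower ones, Chat and Slc5a7 were found together in 19.7% and 17.3%, beside products of 17.1% and 15.6%. Single shares then were 41.7% and 45.4% for Chat, 41.0% and 34.3% for Slc5a7, 40.6% and 45.1% for Chrna3, 25.6% and 24.8% for Chrnb3 and 20.7% and 21.3% for Chrnb4.

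After thinning, 1 of 10 pairs stayed above the product in both libraries, and it joined a synthesis gene with a subunit. Chat and Chrnb3 were found together in 13.7% (10.7 to 17.1) and 14.1% (11.6 to 16.8) of nuclei, beside products of 10.7% and 11.2%, and in sham the lower bound cleared the product only in the second decimal (10.69 and 10.68). Chrnb3 was seen in 32.8% and 31.0% of the nuclei with Chat and in 20.5% and 19.6% of those without. The pair Chrna3 and Chrnb4, neighbours in the genome and partners in the channel, was found together in 8.55% and 10.3%, which is 1.02 and 1.07 times the product, and Chat and Chrna3 in 0.99 and 1.04 times. The ratio to the product ranged from 0.844 to 1.28 over the 10 pairs and both libraries, with a median of 1.02. Slc5a7 with Chrnb3 came next to Chat with Chrnb3, at 1.22 and 1.14 times its product, with intervals that included the product.

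**Figure D3:**
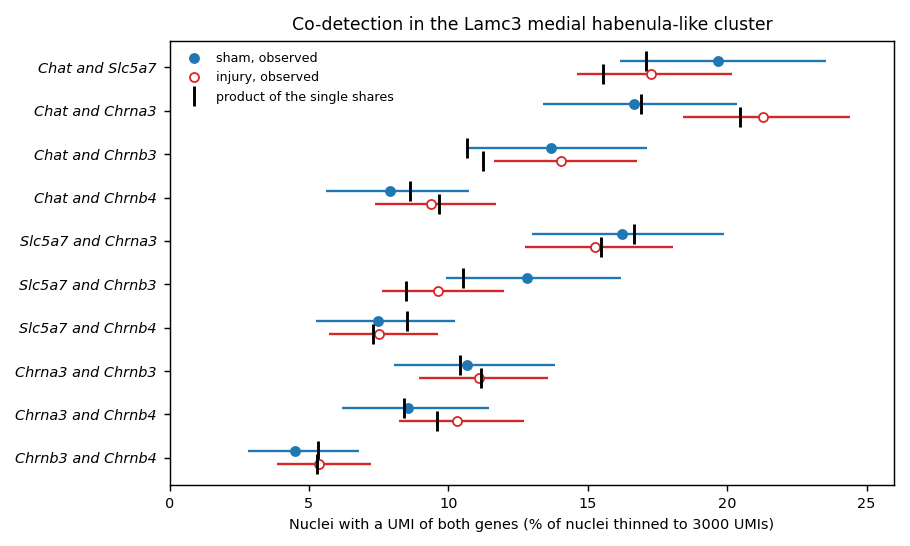
Share of Lamc3 cluster nuclei in which both genes of a pair had a UMI, after thinning to 3000 UMIs, for 10 pairs, 1 point per library with its 95% Clopper-Pearson interval beside the product of the 2 single shares. The interval of Chat with Chrnb3, 13.7% and 14.1%, lies above its products of 10.7% and 11.2% in both libraries, in sham by less than the plot can show.

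In the Pde11a cluster at full depth Chrna3 and Chrnb4 were found together in 8 sham nuclei (1.62%) and 17 injury nuclei (3.63%), beside products of 1.33% and 1.80%. Thinned, the shares were 1.29% (5 nuclei) and 0.257% (1 nucleus), beside products of 0.634% and 0.562%, so the pair was above its product in sham and below it in injury, and no direction is given. In thalamic neurons Chrna4 and Chrnb2 were found together in 159 of 6448 sham and 145 of 6458 injury nuclei (2.47% and 2.25%). Once thinned the shares were 0.191% and 0.159% of 6294 and 6297 nuclei, which is 1.05 and 0.87 times the product. Such shares rest on few nuclei, so these values do not show whether the 2 genes pair beyond the single shares. Chrna7 was seen in 4.73% and 4.26% of the thinned thalamic nuclei, beside 3.57% and 4.30% for Chrna4. Chrna3 with Chrnb4 was found in 1 sham and 2 injury thalamic nuclei.

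The number of different subunits seen in a thinned nucleus fell from the Lamc3 to the Pde11a, the Ptprq and the thalamic nuclei. Of thinned Lamc3 nuclei 67.5% in sham and 71.4% in injury showed at least 1 of the 8 subunits and 25.0% and 24.6% at least 2, with means of 0.968 and 1.02 subunits. At least 1 was seen in 29.5% and 24.2% of the Pde11a nuclei, in 21.6% and 15.9% of the Ptprq nuclei and in 13.2% and 12.7% of the thalamic nuclei. The shares were 17.4% and 18.2% in other glutamatergic neurons, above the Ptprq cluster in injury, and 19.1% and 15.4% in GABAergic neurons. At full depth the thalamic neurons, with 36.3% and 36.5%, stood above the Ptprq cluster, with 32.9% and 31.3%. No subunit was seen in 98.5% and 96.8% of the 65 and 220 oligodendrocytes that had 3000 UMIs.

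**Figure D4:**
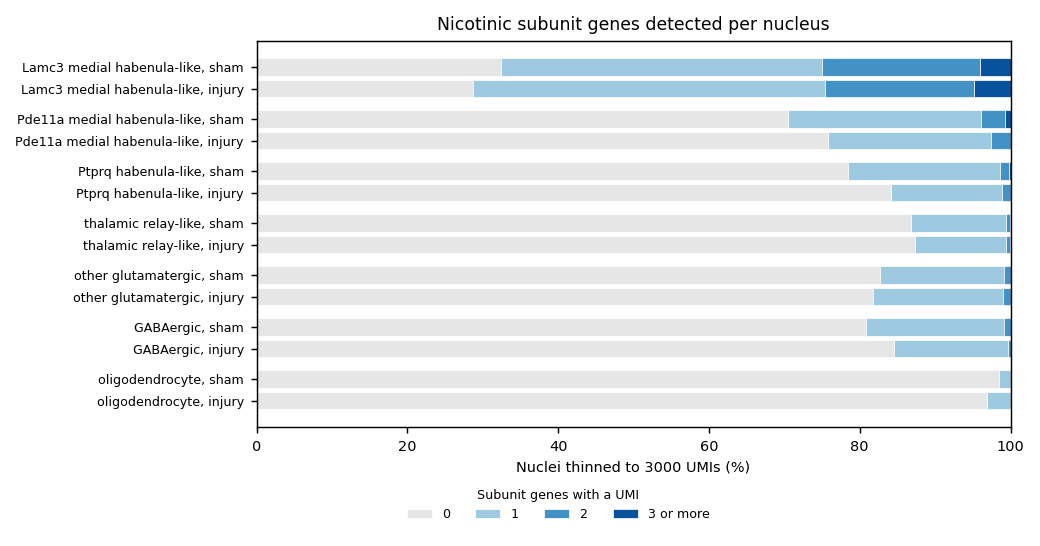
Percent of nuclei by the number of different nicotinic subunits (of 8) with a UMI, thinned to 3000 UMIs, in each library. The classes are the habenula-like clusters, the thalamic, other glutamatergic and GABAergic neurons and the oligodendrocytes. The Lamc3 cluster has 32.5% and 28.6% of nuclei with none, against 86.8% and 87.3% in the thalamic neurons.

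Injury and sham differed little for the members within a cluster. In the Lamc3 cluster 1 of 9 members with at least 20 UMIs over both libraries was past 2-fold, Chrna5 with 5 and 19 UMIs at a log2 ratio of 1.18 (-0.29 to 2.95), beside 2.74% of 12992 genes. The median over the 9 members was 0.04, beside -0.00 over all genes. Chat had a log2 ratio of injury to sham of 0.12 (-0.02 to 0.26), Chrnb4 of 0.04, Chrnb2 of 0.05 and Chrnb3 of -0.18 (-0.38 to 0.02). Slc5a7 was lower in injury by value, -0.25 (-0.40 to -0.09), and Chrna3 higher, 0.16 (0.01 to 0.31), both with counting intervals that leave out 0 and a change well under 2-fold. These intervals hold no spread between animals.

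Taken over all habenula-like nuclei, the same genes appeared higher in the injury library, with log2 ratios of 0.63 (0.49 to 0.77) for Chat, 0.59 for Chrna3, 0.50 for Chrnb4, 0.25 for Slc5a7 and 0.20 for Chrnb3. The share of the Lamc3 cluster, their highest cluster, was 44.5% of those nuclei in injury and 31.7% in sham, and within it the ratio was 0.12 for Chat, 0.16 for Chrna3 and 0.04 for Chrnb4. Whether the share differed because of the operation or because of which parts of the habenula entered each pool cannot be told apart. Over all habenula-like nuclei Chrna5, with 6 sham and 23 injury UMIs, had the largest ratio, 1.70 (0.36 to 3.28). Chrna7 went the other way, at -0.38 (-0.62 to -0.15). Chrna4, at -0.09, and Chrnb2, at -0.23, were lower by value with intervals that included 0.

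**Figure D5:**
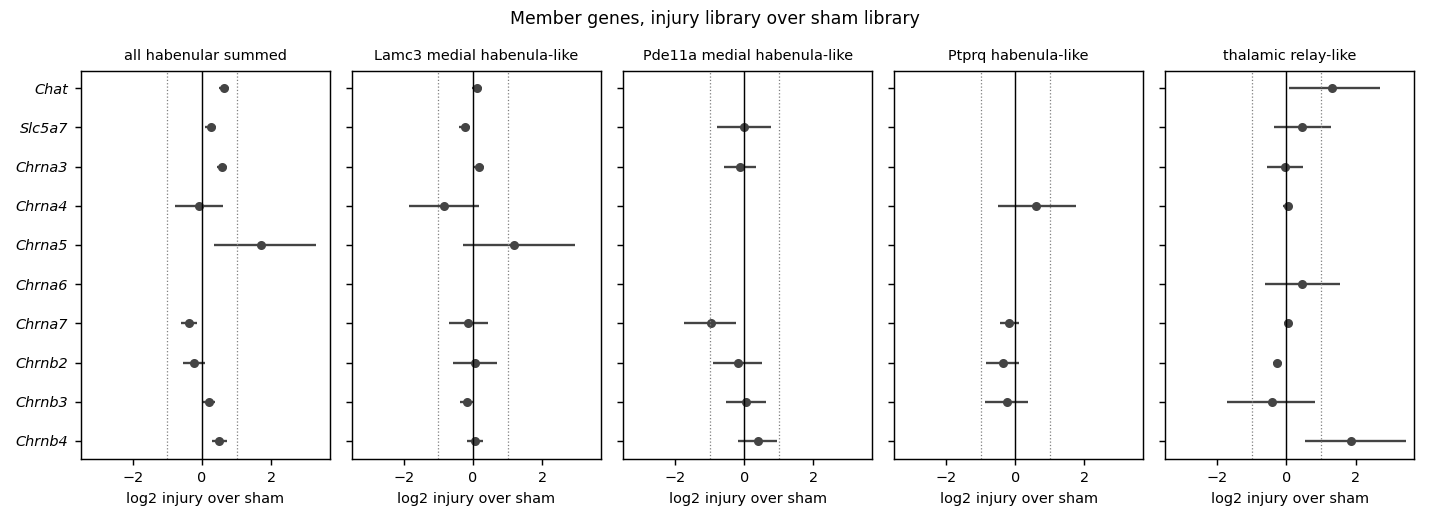
Log2 ratio of the level in the injury library to that in the sham library for the members with at least 20 UMIs over both libraries, in all habenula-like nuclei summed, in each habenula-like cluster and in the thalamic neurons, with 95% exact intervals. Ratios in the Lamc3 cluster lie between -0.83 (Chrna4) and 1.18 (Chrna5), and Chat and Chrnb4 in the thalamic neurons lie at 1.32 and 1.87.

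In the Pde11a cluster 0 of 6 members and in the Ptprq cluster 0 of 4 were past 2-fold, beside 2.52% of 11972 and 2.25% of 14150 genes. Their medians were -0.07 and -0.21, beside -0.01 and 0.01 over all genes. The furthest was Chrna7 in the Pde11a cluster, with 47 sham and 25 injury UMIs and a log2 ratio of -0.97 (-1.73 to -0.24). In the thalamic neurons 2 of 9 members were past it, beside 2.35% of 19794 genes, and both were genes these neurons hardly held. Chat rested on 8 and 21 UMIs, with a ratio of 1.32 (0.09 to 2.71), and Chrnb4 on 6 and 23 UMIs, with a ratio of 1.87 (0.53 to 3.45) and 5 of the 23 in 1 nucleus. Both injury levels, 0.292 and 0.320 CPM, were below the 0.705 and 0.470 of the injury oligodendrocytes, which came from 3 and 2 UMIs, but by share of nuclei both, at 0.279%, were above the 0.130% and 0.087% of those shallower nuclei. After thinning the Chrnb4 ratio turned to -1.59. Of the subunits that the thalamic neurons carried, Chrna4 was at 0.04 (-0.08 to 0.17), Chrna7 at 0.04 and Chrnb2 at -0.26 (-0.38 to -0.13), with a median over the 9 members of 0.04 beside -0.01 over all genes.

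Other genes of cholinergic signalling were read from a list of 26, of which 18 had at least 20 UMIs over habenula-like and thalamic neurons. Of these, 5 were at least 2-fold higher in the habenula-like neurons in both libraries (Prima1, Colq, Chrm1, Chrnb1 and Tmem35a) and 4 lower (Bche, Lypd1, Lypd6 and Lypd6b), beside the 10.7% and 9.18% of all genes. Prima1, which anchors acetylcholinesterase in the membrane, measured 109 and 133 CPM in the Lamc3 cluster, 22.5 and 35.8 in the Pde11a cluster and 1.18 and 1.36 in the thalamic neurons. Oligodendrocytes held it at 156 and 188, and the 5 oligodendrocyte markers summed to 33.5 and 55.5 CPM in the Lamc3 cluster, 51.2 and 60.1 in the Pde11a cluster and 33.3 and 44.3 in the thalamic neurons. The part of oligodendrocyte RNA in the Prima1 level was not tested. Acetylcholinesterase itself, Ache, measured 22.8 and 21.9 in the Lamc3 cluster and 18.6 and 18.2 in the thalamic neurons.

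Muscarinic receptors and the Lypd6 genes divided the classes in other ways. Chrm2, the M2 receptor, measured 725 and 613 CPM in the Ptprq cluster, 224 and 187 in the thalamic neurons, 17.4 and 17.3 in the Lamc3 cluster and 15.6 and 10.2 in the Pde11a cluster. Chrm3, the M3 receptor, measured 845 and 834 in the Ptprq cluster, 594 and 561 in the thalamic neurons, 438 and 413 in the Pde11a cluster and 193 and 198 in the Lamc3 cluster. Lypd6 and Lypd6b, membrane-anchored modulators of nicotinic receptors, measured 1.34 and 2.19, and 3.02 and 3.38, in the Lamc3 cluster, where Chrna3, Chrnb3 and Chrnb4 were highest. In the thalamic neurons Lypd6 and Lypd6b measured 36.5 and 42.8, and 75.6 and 89.4. The Pde11a cluster, next in order for those subunits, held Lypd6 at 20.5 and 16.5 and Lypd6b at 4.10 and 7.86. In the Ptprq cluster Lypd6 measured 6.70 and 4.58 and Lypd6b 18.9 and 18.7. Tmem35a, the assembly chaperone NACHO, measured 14.2 and 12.9 in the Ptprq cluster, 9.38 and 8.56 in the Lamc3 cluster, 1.64 and 1.96 in the Pde11a cluster and 3.76 and 3.06 in the thalamic neurons, so the Pde11a cluster did not share the higher level of the class. Slc18a3, the vesicular acetylcholine transporter, lies inside Chat on the same strand, and had 10 and 12 UMIs in the Lamc3 cluster, so that reads of the shared stretch could not be given to either gene with certainty.

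In injury against sham, 0 of 13 of these genes in the Lamc3 cluster, 1 of 11 in the Pde11a cluster (Chrm1, with 16 and 7 UMIs), 0 of 14 in the Ptprq cluster and 0 of 20 in the thalamic neurons were past 2-fold, beside the 2.74%, 2.52%, 2.25% and 2.35% of all genes. Prima1 had a log2 ratio of 0.29 (0.10 to 0.49) in the Lamc3 cluster and 0.67 (0.17 to 1.18) in the Pde11a cluster. In the thalamic neurons it stood at 0.20 (-0.24 to 0.65). The summed oligodendrocyte markers were higher in the injury library in all 3 of these classes. The part of oligodendrocyte RNA in these Prima1 ratios was not tested.

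Across the 20 neuron clusters compared, the pattern of a member was set beside those of 16142 genes by Pearson correlation of log2 levels, as a description over clusters that share 2 libraries and differ in depth. Chrnb4 was most like Taok1 (r of 0.955 in sham and 0.949 in injury), Chrna3 like Taok1 (0.900 and 0.910) and Chrnb3 like Robo3 (0.955 and 0.954), which guides axons and was itself a leading gene of the Lamc3 cluster. Chat was most like Pard3 (0.927 and 0.894), Slc5a7 like Map3k6 (0.916 and 0.909), Chrna4 like Adarb1 (0.827 and 0.852), an RNA-editing enzyme on the thalamic marker list, and Chrna7 like Slc1a6 (0.807 and 0.811). Chrnb2 had no close match, with 4930447N08Rik at 0.599 and 0.718. With Spearman correlation and also with a pseudocount of 5, Pard3 was no longer among the 3 genes most like Chat, nor Taok1 among those most like Chrna3. Adarb1 for Chrna4 and Slc1a6 for Chrna7 stayed among the 3 under both. Among the members themselves Chrna3 and Chrnb4 were the closest pair, at 0.943 and 0.951, and Chat and Slc5a7 stood at 0.861 and 0.835.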

How the data were processed

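Nuclei were isolated from the thalamus of 4 pooled mice per condition and sequenced from the 3′ end. Per the labels and the study's methods, the authors processed the reads with bcl2fastq and Cell Ranger 6.0.2 against mm10 (GRCm38) and analysed them with Seurat 4.0; the deposited matrices hold raw UMI counts per gene and barcode. Depth was 137850696 and 180106314 UMIs in sham and injury.

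Here nuclei with over 2% mitochondrial UMIs, under 200 genes or over 7500 genes were left out. Libraries were integrated and clustered in Seurat 5.3.0 (2000 variable genes, of which 1986 remained without cholinergic genes, 30 components, resolution 0.5). Doublets called by Scrublet (scanpy 1.11.5; 2179 sham and 3871 injury nuclei) were kept, except that clusters with over 50% doublets were set aside as mixed; leaving all of them out was an alternative. Neuron clusters with under 50 nuclei in a library were not compared. A cluster was habenula-like at a mean log2(CPM + 1) of 2.5 or more over 4 habenula markers, and thalamic relay-like at 6 or more over its 10 markers. These thresholds were set after the data were seen. Relay-like clusters with a cortical or endothelial marker among their 10 leading genes were kept out of the thalamic class; they held 1026 sham and 878 injury nuclei (led by Glis3) and 195 and 194 (led by Gm36903). A gene was counted as different at 2-fold or more, in both libraries for comparisons between classes, among genes with at least 20 UMIs. With 1 pool per group, no test was made. A count of 0 was set to a floor of 3 UMIs per class and library for that rule, and shares of 0 have a floor of 3 nuclei. Genes with a like pattern needed at least 100 UMIs in neurons of each library and members 200.

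The members and gene lists were chosen with earlier results of these data known. All 10 members were to be named, with other cholinergic genes as counts and values and the 3 most alike genes per member. Scripts were tested on simulated data. Gene positions are from GENCODE M21 on GRCm38; promoters are from RefSeq GRCm38.p6. Further tools were Python 3.11.15, numpy 2.4.6, scipy 1.17.1, pandas 2.3.3, matplotlib 3.10.9, R 4.3.3 and edgeR 4.0.16, used for TMM factors alone. Alternatives were TMM factors, means over nuclei, equal weights for clusters, doublets left out, no integration, resolution 1, thinning to 3000 UMIs, subtraction of the oligodendrocyte level, no minimum of UMIs, Spearman correlation and a pseudocount of 5 instead of 1.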

Additional observations from a re-analysis of the deposited data

How the results depend on the processing

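The counts of members at least 2-fold higher or lower in a habenula-like cluster than in thalamic neurons stayed the same under all alternatives run, except that 2 members in place of 3 were higher in the Ptprq cluster with TMM factors and without integration, where Chrna7 in injury had a log2 ratio of 0.80 under both, and that without a minimum of UMIs members with few UMIs were added. With 1 UMI as the minimum, 6 of 10 members were higher in all habenula-like neurons (11.9% of genes), 7 of 10 in the Lamc3 (10.3%), 5 of 10 in the Pde11a (10.3%) and 6 of 9 in the Ptprq cluster (10.6%), the added ones being among Chat, Chrna5, Chrna6 and Chrnb4, and 1 was lower in each. Without integration a small cluster of Ptprq nuclei with high Chrna7 was placed in the Pde11a class, where Chrna7 then had 1.18 in sham and 0.66 in injury over thalamus. Of single members, 518 ratios between classes kept their value within the counting interval, 38 moved and 2 reversed; for injury against sham these were 269, 6 and 1. The reversed values were those of Chrna3 in the Ptprq cluster over thalamus in injury, -0.28 without called doublets and -0.90 after thinning, and that of Chrnb4 in thalamic neurons, injury over sham, -1.59 after thinning; all rest on few UMIs, and the cause was not tested. Thinning to 3000 UMIs lowered shares with both genes: Chat with Slc5a7 in the Lamc3 cluster to 19.7% and 17.3%, Chrna3 with Chrnb4 there to 8.55% and 10.3% and in the injury Pde11a nuclei to 0.257%, and Chrna4 with Chrnb2 in thalamic neurons to 0.191% and 0.159%. With the minimum at 1 UMI, Chrna5 alone was past 2-fold between injury and sham in the Lamc3 cluster (1 of 10, beside 8.64% of genes). The same held in the Pde11a cluster (1 of 8, beside 9.76%). Chrna3 and Chrnb4 were past it in the Ptprq cluster (2 of 9, beside 9.58%), and Chat and Chrnb4 in the thalamic neurons (2 of 10, beside 7.93%). Of the 24 genes most like a member, 4 were also found with Spearman correlation and 11 with a pseudocount of 5. Including the kept-out thalamic clusters and leaving out barcodes found in both libraries were chosen after the data were seen. No paired analysis was possible because sham and injury were 1 pool of mice each. Chrna5, Chrna6 and the thalamic levels of Chat and Chrnb4 are limited by depth.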
